A study of Homo sapiens with 6 samples.

Results

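Processed pseudogenes are the genes annotated as processed_pseudogene or transcribed_processed_pseudogene in GENCODE release 29, and 10648 of them were in the table, of 58478 genes in all. They comprised 10171 of the first class and 477 of the second. A parent was taken as the protein-coding gene whose symbol stands before the final P and digits of the pseudogene's symbol, which gave 5037 pseudogenes with 1409 parents and left 5611 without one. Levels were measured by RNA-seq in 6 libraries labelled Huh7, a hepatocellular carcinoma line of WT genotype. Normoxia, 3 libraries (C1, C2 and C3), was culture at 21% O2, and hypoxia, 3 libraries (C4, C5 and C6), was culture at 1% O2, both for 24 h. The question was which of these pseudogenes differed in RNA level between hypoxia and normoxia, and whether their changes resembled those of their parents or of the genes around them.

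A processed pseudogene is a copy of a spliced mRNA that the LINE-1 machinery reverse transcribed and inserted elsewhere in the genome. Such copies lack introns and usually lack a promoter of their own, and many have gathered mutations that break the reading frame. Genes with abundant germline mRNA, such as those of ribosomal proteins, glycolytic enzymes, ferritin and keratins, have left the most copies. A copy can be transcribed from a nearby promoter or carried in the intron of a longer transcript, and reads from it can resemble reads from the parent.

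How far copies differ from their parents is shown by 7 pairs, chosen to span the range of likeness and to cover members on which the results turn. For each, the stretch of 80 bases of the parent's coding sequence that aligned without a gap and held most differing bases is given, 5′ to 3′, from GENCODE release 29 transcripts on GRCh38. Capitals mark the bases that differ between the members of a pair. The first pair is RPL23AP42 (ENSG00000234851.4), chr3:161429221-161429300 on the minus strand, and bases 412 to 491 of the coding sequence of RPL23A, a large-subunit ribosomal protein. Their alignment was 99.6% identical over 447 columns, and the longest run without a difference was 323 bases.
RPL23AP42: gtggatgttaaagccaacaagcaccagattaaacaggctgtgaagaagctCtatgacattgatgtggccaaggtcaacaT
RPL23A: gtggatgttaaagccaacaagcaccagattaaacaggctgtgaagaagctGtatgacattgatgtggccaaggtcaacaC
BZW1P2 (ENSG00000198406.7) had no difference from BZW1, a regulator of translation, in an alignment of 823 columns. Its stretch at chr3:116646645-116646724 on the minus strand, bases 529 to 608 of the BZW1 coding sequence, is therefore given only for the pseudogene.
BZW1P2: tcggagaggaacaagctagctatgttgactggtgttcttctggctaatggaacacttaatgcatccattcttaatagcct
HMGB1P5 (ENSG00000132967.9), a copy of the DNA-bending chromatin protein gene HMGB1, was 97.9% identical to it, shown for chr3:22381945-22382024 on the plus strand and coding bases 127 to 206.
HMGB1P5: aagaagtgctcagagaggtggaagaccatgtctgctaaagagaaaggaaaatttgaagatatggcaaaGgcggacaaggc
HMGB1: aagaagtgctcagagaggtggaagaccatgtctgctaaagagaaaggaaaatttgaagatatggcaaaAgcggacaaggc
FTH1P2 (ENSG00000234975.6), a copy of the ferritin heavy chain gene, was 97.6% identical to it, shown for chr1:228687727-228687806 on the plus strand and coding bases 452 to 531.
FTH1P2: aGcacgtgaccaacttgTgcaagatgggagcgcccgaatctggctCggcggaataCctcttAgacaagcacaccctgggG
FTH1: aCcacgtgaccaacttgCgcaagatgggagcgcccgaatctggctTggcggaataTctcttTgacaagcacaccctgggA
RPL13AP20 (ENSG00000234498.3) was 93.0% identical to RPL13A, another large-subunit ribosomal protein gene, shown for chr12:12875669-12875748 on the plus strand and coding bases 167 to 246.
RPL13AP20: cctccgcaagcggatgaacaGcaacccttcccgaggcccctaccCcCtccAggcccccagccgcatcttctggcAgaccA
RPL13A: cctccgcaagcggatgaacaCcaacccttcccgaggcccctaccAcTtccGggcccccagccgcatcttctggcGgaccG
SETP6 (ENSG00000241319.1) was 89.8% identical to SET, which encodes a histone chaperone, shown for chr3:81612699-81612778 on the minus strand and coding bases 64 to 143.
SETP6: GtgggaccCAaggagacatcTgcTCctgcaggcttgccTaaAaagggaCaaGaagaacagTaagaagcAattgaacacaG
SET: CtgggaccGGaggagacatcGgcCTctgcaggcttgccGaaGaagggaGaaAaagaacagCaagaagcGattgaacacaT
ATP6V0CP4 (ENSG00000284138.1) was 73.3% identical to ATP6V0C, a subunit of the proton pump of lysosomes, shown for chr1:42952364-42952443 on the minus strand and coding bases 209 to 288.
ATP6V0CP4: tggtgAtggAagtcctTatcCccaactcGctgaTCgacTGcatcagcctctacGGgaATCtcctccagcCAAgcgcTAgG
ATP6V0C: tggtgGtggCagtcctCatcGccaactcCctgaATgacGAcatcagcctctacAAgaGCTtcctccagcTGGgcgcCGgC
These windows held 2, 0, 1, 6, 6, 13 and 20 differing bases in that order.

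Expected counts per library summed to between 37621426 and 40794783, of which 6.12% to 6.39% lay on transcripts with no gene in release 29. Processed pseudogenes held 0.241% to 0.263% of gene counts in normoxia and 0.268% to 0.285% in hypoxia. The 6 listed hypoxia genes rose by 2.92 to 5.47 on the log2 scale (CA9, VEGFA, NDRG1, ADM, EGLN3 and BNIP3). Of 9 hepatocyte markers, 7 were under 1 CPM (counts per TMM-adjusted library size of 1e6), and AFP, APOA1, TTR and GPC3 had 0 counts in all 6 libraries. Their sum lay between 1.30 and 1.63 CPM under normoxia and between 7.97 and 9.51 CPM under hypoxia, so the libraries labelled Huh7 carried little mRNA of most genes that mark hepatocytes. Fibroblast markers summed to 70.5 to 73.0 CPM and 52.8 to 61.8 CPM, nearly all COL1A1. The endothelial list lay at 11.3 to 12.3 CPM under normoxia against 4.97 to 5.79 CPM under hypoxia, with KDR at 0 counts. Its members differed in direction. CDH5 fell from 9.15 to 0.453 CPM and VWF from 0.504 to 0.196 CPM, while PECAM1 rose from 2.11 to 4.86 CPM. The immune list lay at 6.47 to 6.70 CPM against 43.0 to 52.2 CPM, mostly CD68, with PTPRC at 0 counts. The part of these genes in the results below was not tested. Replicates are termed biological in the labels, but their cultures are not described, and each p-value therefore reflects the spread among these libraries, which may be technical. In such bulk samples, fewer cells with a transcript and less of it per cell cannot be told apart.

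Most processed pseudogenes had no reads. Of the 10648, 7269 had 0 counts in all 6 libraries, 2739 had counts but stayed below the low-count filter, and 640 were tested, of which 272 reached a mean of 1 CPM and 32 a mean of 10 CPM. A gene that passed the filter only through one group had to differ, so the tested members do not stand for all members. For members near 0 counts in a group, the adjusted p and the lack of overlap therefore add no independent support for a change. Such members below include RPLP0P2, SETP6, FTH1P2 and KRT16P4, and those with 0 counts in normoxia. Among the 640 tested members, 521 were of the plain class and 119 of the transcribed class, and 360 had a parent.

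In hypoxia, 201 of the 640 tested pseudogenes rose and 104 fell (edgeR quasi-likelihood test, Benjamini-Hochberg adjusted p under 0.05). That is 305 called, or 47.7%, beside 72.8% of all 17396 genes tested. The risen share of all genes was 36.5% and the fallen share 36.3%. At least 2-fold, 139 members rose and 65 fell, while 17.5% and 11.4% of all genes did. The groups did not overlap for 357 members, beside 75.7% of all genes. The median log2 change was 0.30 for the members, 0.02 for all genes tested and -0.08 for protein-coding genes. The members' median was 0.15 under library totals, beside -0.13 for all genes. With limma on FPKM (fragments per kilobase, recomputed from the counts and transcript lengths) it was 0.10 to 0.18, beside -0.13 to -0.10 for all genes. Tested with no filter, the 3379 members that had counts had a median of 0.17, close to the 0.13 of all genes. Pseudogenes that arose by duplication, the unprocessed class, had a median of 0.25, with 242 of 378 called.

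The gap to all genes was narrower among genes of like level. Under 1 CPM, 143 of 368 members were called (38.9%), beside 47.5% of all genes at that level. Between 1 and 10 CPM the counts were 139 of 240 (57.9%) beside 68.5%, and at 10 CPM or more 23 of 32 (71.9%) beside 83.2%. The lean to rises did not hold against genes of like level throughout. Under 1 CPM the median was 0.25 for members and 0.47 for all genes, and rises made up 60.8% of the members' calls and 72.3% of the calls of all genes. Between 1 and 10 CPM the medians were 0.36 and 0.16, with 71.2% and 57.2% of calls risen, and at 10 CPM or more 0.24 and -0.10, with 65.2% and 43.2%. These differences between members and all genes were not tested. Over all levels, risen calls made up 65.9% of the members' calls. That share was 58.1% when libraries were scaled by their totals, which moved the median of all genes from 0.02 to -0.13, and 57.0% to 57.5% with limma on FPKM.

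Summed over all members, the level was 2487, 2425 and 2283 CPM in normoxia and 2802, 3042 and 2829 CPM in hypoxia. The lowest hypoxia library lay above the highest normoxia library. The ratio of means was 1.21 (2398 ± 105 against 2891 ± 132 CPM, SD, n = 3 each), with an exact two-sided permutation p of 0.1, the smallest that 3 against 3 libraries allow. The ratio was 1.25 for the plain class (1437 ± 86.5 and 1796 ± 119 CPM) and 1.14 for the transcribed class (961 ± 32.6 and 1095 ± 44.7 CPM), again with an exact permutation p of 0.1 for each. As a share of gene counts the ratio was 1.08.

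The 10 most abundant members held more than all others together in each library, and of these 10, 4 rose, 2 fell and 4 did not pass the test. RPL23AP42 stood first, at 474, 463 and 413 CPM in normoxia and 460, 581 and 483 CPM in hypoxia. Its groups overlapped, and its log2 change of 0.17 ± 0.08 (SE) did not pass the test (adjusted p = 0.0786). Per length, in FPKM, it stood at 168% of RPL23A in each group, but with 99.6% identity the division of reads between them is uncertain. AC004057.1, which has no parent by name and whose closest protein-coding transcript was that of RPS26 at 100% identity, went from 247, 271 and 216 CPM to 299, 300 and 222 CPM, with overlapping groups. AC116533.1, an equally exact copy of RPL36A in an intron of PLEKHA7, rose by 0.22 (adjusted p = 0.0224) while PLEKHA7, a junction protein gene, fell by 1.75. Its call was lost under library totals (0.06, edgeR adjusted p = 0.425), with limma, and without C3, C5 or C6 (edgeR adjusted p = 0.104, 0.0788 and 0.0524). At 100% identity, the division of reads of AC004057.1 with RPS26 and of AC116533.1 with RPL36A is uncertain. AC022149.1, a copy of the integrin gene ITGB1, was at 0.26 (adjusted p = 0.0628).

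Other abundant members had groups that lay well apart. WASH5P, of a family that helps actin branch on endosomes, rose from 135, 135 and 129 CPM to 214, 213 and 200 CPM (log2 change 0.65 ± 0.04, adjusted p = 1.81e-07). DUXAP10, of the DUXA homeobox family, fell from 112, 109 and 114 CPM to 66.5, 68.8 and 64.6 CPM (-0.74 ± 0.04, adjusted p = 7.02e-08), although its parent DUXA had 0 counts. Neither gene had a library near the other group. RPS2P5, 98.7% identical to the ribosomal gene RPS2, rose by 0.41 ± 0.08 (56.7, 47.6 and 51.0 to 65.0, 75.8 and 65.8 CPM), while RPS2 was at 0.05 (adjusted p = 0.256). GTF2IP4, a copy of the transcription factor gene GTF2I, stood at 43.5, 45 and 43.0 against 41.3, 44.5 and 48.3 CPM (0.03 ± 0.06, adjusted p = 0.695). BZW1P2 rose from 37.6, 39.7 and 38.3 CPM to 78.0, 101 and 101 CPM (1.27 ± 0.09), beside 1.06 for BZW1. It stood at 22.9% of the FPKM of BZW1 in normoxia and 24.1% in hypoxia, and with no difference in the aligned sequence the division of reads is uncertain.

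**Figure D1:**
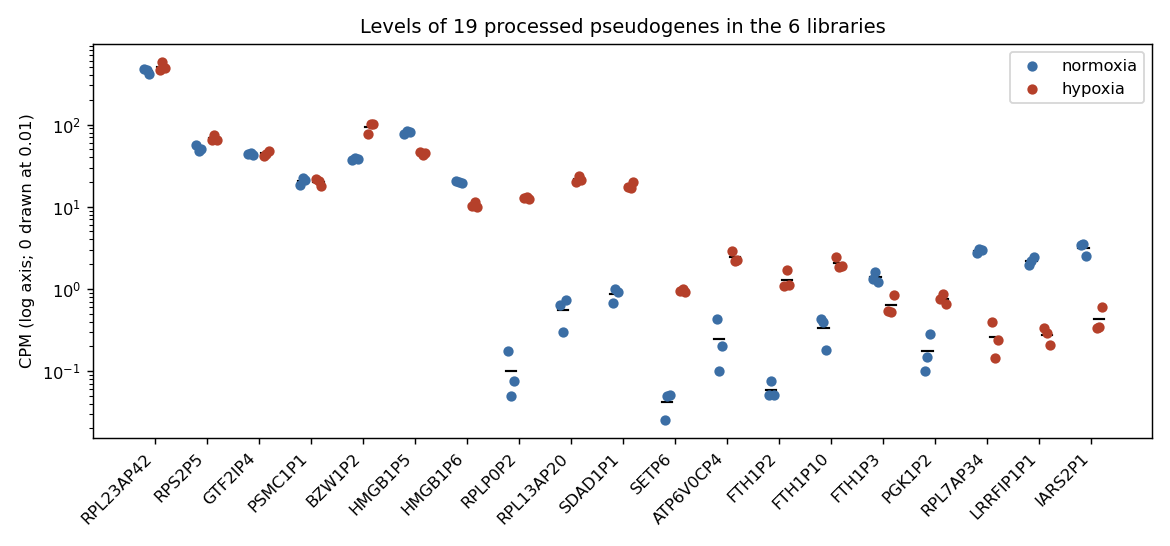
CPM (log axis) of 19 processed pseudogenes in each of the 3 normoxia (blue) and 3 hypoxia (red) libraries, with black lines at the group means. RPL23AP42 has group means of 450 CPM (normoxia) and 508 CPM (hypoxia) with overlapping groups. By contrast, the mean of RPLP0P2 goes from 0.101 to 12.7 CPM and that of RPL7AP34 from 2.93 to 0.259 CPM.

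Members were also grouped by where they lie. Of the 640, 333 lay in an intron of a protein-coding or long noncoding gene on the same strand, 72 overlapped an exon of one, 36 lay in an intron and 30 over an exon on the opposite strand, and 169 lay outside such genes. In the table as a whole, 1652 members lay in same-strand introns and 5992 outside genes. Same-strand intron members were thus 333 tested of 1652, beside 169 of 5992 outside genes. Their calls were 98 risen and 47 fallen (median 0.27), beside 53 risen and 30 fallen outside genes (median 0.42). Over same-strand exons 25 rose and 18 fell, with a median of 0.09 that became -0.06 under scaling by library totals and -0.04 to -0.02 with limma. In opposite-strand introns 13 rose and 6 fell (median 0.23), and over opposite-strand exons 12 rose and 3 fell (0.29). The share called was 43.5% in same-strand introns, 49.1% outside genes, 59.7% over same-strand exons, 52.8% in opposite-strand introns and 50% over opposite-strand exons. Of all genes tested 72.8% were called, and of all genes under 1 CPM 47.5%. Taken alone, the 215 members that overlapped no other gene on their strand gave 69 risen and 35 fallen. The libraries were strand-specific per the labels, but whether the counting used the strand is not given in the sources used here, so reads of overlapping genes on opposite strands may be mixed.

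**Figure D2:**
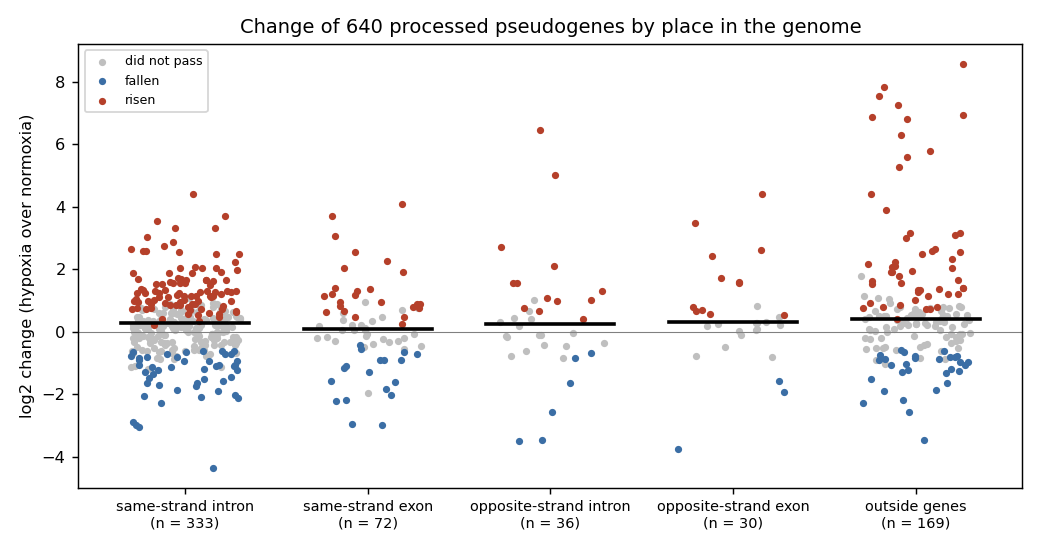
Log2 change from normoxia to hypoxia of each of the 640 tested processed pseudogenes by place, with black lines at the medians. Red points rose, blue points fell and grey points did not pass the test. Each place holds members of both directions, and the members with the largest rises lie outside genes.

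Within same-strand introns, the changes of pseudogenes lay nearer to those of the gene around them than to those of their parents. For 176 of them both the host gene (the most abundant gene around the intron) and the parent were tested. Across these pseudogenes the log2 change correlated with that of the host at r = 0.79 (Spearman 0.75) and with that of the parent at r = 0.12 (Spearman 0.17). The points share all 6 libraries, and some share a host or a parent, so they are not replicates and no p is given. The change was nearer to the host's for 122 and nearer to the parent's for 54. The median distance was 0.43 from the host and 0.82 from the parent on the log2 scale. With another filter, tool or scaling, or without any 1 library, r with the host was 0.46 to 0.83 and r with the parent 0.07 to 0.13. The lowest value for the host, 0.46, came with no low-count filter, over 463 pseudogenes.

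Calls showed the same division. Of 118 pseudogenes in introns of hosts that rose, 67 rose and 2 fell. Of 135 in introns of hosts that fell, 41 fell and 9 rose. Where the parent rose, 24 of 56 intronic pseudogenes rose and 5 fell, and where the parent fell, 21 of 84 fell while 25 rose. Over same-strand exons, r was 0.62 with the host and 0.14 with the parent (37 pseudogenes). In opposite-strand introns it was 0.18 with the host over 15 pseudogenes and 0.66 with the parent over 21. Outside genes, r with the parent was 0.20 over 85 pseudogenes. For all 169 pseudogenes outside genes, the next gene upstream on the same strand gave 0.47 (Spearman 0.33), and for the 25 that lay within 5000 bases of it 0.77 (Spearman 0.54).

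**Figure D3:**
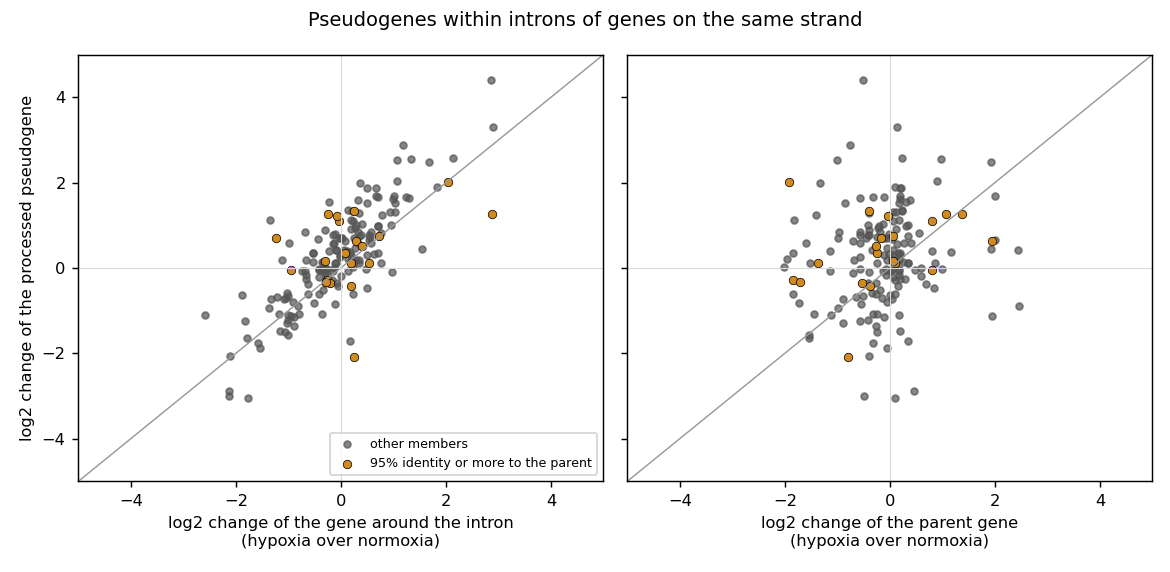
Log2 change of the 176 processed pseudogenes within same-strand introns (vertical) against that of the gene around the intron (left) and of the parent gene (right), with grey diagonals where both are equal. Points follow the diagonal on the left (r = 0.79) and spread without a slope on the right (r = 0.12). Orange points, the 20 pseudogenes at 95% identity or more, have r = 0.37 with the gene around them.

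Members were also split by likeness to the parent. Alignments gave a median identity of 90.6% for 330 tested members and 87.7% for 4570 that were not tested. The share tested was 4.55% under 85% identity, 6.43% between 85% and 90%, 7.48% between 90% and 95% and 12.2% at 95% or more. Among the intronic pseudogenes, r with the host was 0.88, 0.78 and 0.85 in the first 3 of these classes (49, 48 and 49 pseudogenes) and 0.37 in the last (20 pseudogenes). There the change was nearer to the host's for 10 of 20. With the parent, r was 0.25, -0.01, 0.08 and 0.27. Spearman values were 0.86, 0.72, 0.77 and 0.30 with the host and 0.21, 0.06, 0.24 and 0.36 with the parent. For pseudogenes in no gene on their strand, r with the parent was 0.50, 0.67, 0.11 and 0.45 (19, 11, 39 and 45 pseudogenes). The Spearman values there were 0.19, 0.57, 0.22 and 0.54.

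Several intronic examples show the host pattern in single libraries. SETP6 lies in an intron of GBE1, the glycogen branching enzyme gene. It had 0.0252, 0.05 and 0.0510 CPM in normoxia and 0.954, 1.01 and 0.928 CPM in hypoxia. The normoxia values are 5 counts in all, so it passed the low-count filter only through hypoxia and had to differ. Its log2 change was 4.41 ± 0.43 (adjusted p = 4.18e-06), beside 2.86 for GBE1 and -0.51 for SET. ATP6V0CP4 lies in an intron of SLC2A1, the glucose transporter gene, and went from 0.428, 0.1 and 0.204 to 2.86, 2.19 and 2.25 CPM (3.30 ± 0.38, adjusted p = 1.82e-05). SLC2A1 rose by 2.90, and ATP6V0C changed by 0.13. PA2G4P4, named after its values were seen, rose from 4.10, 4.10 and 4.03 to 16.9, 15.4 and 17.2 CPM in an intron of LINC00886 (2.02 ± 0.09, beside 2.03 for LINC00886). Its parent PA2G4, a growth-related RNA-binding protein gene, fell by 1.92, although the pair is 97.3% identical. In FPKM the pseudogene went from 2.20% to 33.9% of its parent.

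Falls in introns of fallen hosts included RPEP4, in the tumour suppressor gene NF2 (-1.53), which went from 0.730, 1.25 and 1.12 to 0.281, 0.403 and 0.15 CPM (-1.88 ± 0.39, adjusted p = 0.00141), while its parent RPE, of the pentose phosphate pathway, was at -0.06 (adjusted p = 0.361). RPL7L1P3, in POR (-1.02), a reductase gene, fell by 1.29, beside -0.88 for RPL7L1. TMSB4XP4, in the fatty acid transport gene SLC27A4 (-1.01), fell by 1.11 and the actin-binding thymosin gene TMSB4X by 1.12. EXOSC3P1, in EVA1C (-1.83), fell by 1.24, beside -0.56 for the RNA exosome gene EXOSC3. RPSAP51, in RIMKLB (-1.16), fell by 1.49 from 1.59, 1.47 and 1.73 to 0.533, 0.691 and 0.479 CPM, while the laminin receptor gene RPSA rose by 0.20. For these 5 the groups did not overlap, but the call of TMSB4XP4 was lost without C1 or C6 (edgeR adjusted p = 0.0573 and 0.0529).

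Further falls, of members chosen after their values were seen, went the same way. CCNL2P1, in an intron of the phospholipid flippase gene ATP8A1, fell by 3.06 ± 0.43 (0.906, 0.725 and 0.612 to 0.0842, 0.0576 and 0.120 CPM). ATP8A1 fell by 1.77, and the cyclin gene CCNL2 was at 0.09 (adjusted p = 0.0576). IARS2P1 and VTA1P2 share a host, the noncoding gene AF121898.1, which fell by 2.14. IARS2P1 went from 3.45, 3.55 and 2.52 to 0.337, 0.346 and 0.599 CPM (-2.89 ± 0.27) while its parent IARS2, a mitochondrial tRNA synthetase gene, rose by 0.46. VTA1P2 fell by 2.99, beside -0.50 for VTA1. KRT18P15, in an intron of CMTM8, fell by 2.06, with CMTM8 at -2.12 and the keratin gene KRT18 at -0.40. LRRFIP1P1 overlaps an exon of the potassium channel gene KCNMB3 and fell from 1.94, 2.17 and 2.45 to 0.337, 0.288 and 0.210 CPM (-2.95 ± 0.27). KCNMB3 fell by 2.89, whereas LRRFIP1 rose by 0.92. Against this pattern, RPS7P3, 95.7% identical to RPS7, fell by 2.09 in an intron of PCNX2, which rose by 0.26, and RPS7 fell by 0.79.

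The largest rises lay outside genes. RPLP0P2, at chr11:61615036-61639449, is a transcribed copy of the ribosomal stalk gene RPLP0 within a longer spliced transcript, of which 30.7% aligned to RPLP0. It had 0.176, 0.05 and 0.0765 CPM in normoxia and 12.7, 13.0 and 12.4 CPM in hypoxia (log2 change 6.93 ± 0.22, adjusted p = 7.65e-10), while RPLP0 fell by 0.24. The next gene upstream, AP002754.1 at 7486 bases, went from 0.0168 CPM, under the floor of 3 counts per library, to 0.702 CPM. RPL13AP20 went from 0.629, 0.300 and 0.739 to 19.9, 23.8 and 21.0 CPM (5.27 ± 0.20, adjusted p = 2.09e-09). RPL13A, at 991 CPM in normoxia, changed by 0.13 (adjusted p = 0.0104). In FPKM, RPL13AP20 went from 0.104% to 3.67% of RPL13A. Both pseudogenes left no overlap between the groups. RPLP0P2, however, passed the low-count filter only through hypoxia, so its adjusted p and lack of overlap are no independent support.

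SDAD1P1 lies opposite an exon of BNIP3L, which encodes a receptor for the removal of mitochondria. It rose from 0.680, 1.00 and 0.918 to 17.5, 17.1 and 20.1 CPM (4.39 ± 0.14, adjusted p = 8.49e-10). BNIP3L, on the other strand, rose by 3.09 from 54.1 to 461 CPM. The parent SDAD1, of ribosome biogenesis, fell from 41.4, 46.4 and 45 to 17.4, 17.0 and 17.4 CPM (-1.36 ± 0.06). In FPKM, SDAD1P1 went from 1.89% to 109% of its parent. Whether the counting used the strand is not given, so its counts may hold reads of BNIP3L. KRT16P4 (3.90 ± 0.64), whose parent KRT16 rose by 2.26, and HMGN2P46 (3.07 ± 0.19), which overlaps an exon of AC025580.2 (3.16), were further members with large rises. In normoxia KRT16P4 stood under the floor of 3 counts per library, and it passed the low-count filter only through hypoxia. STMN1P1, chosen after its values were seen, in an intron of AMN1 (1.19), rose by 2.87 ± 0.72 from 7 counts in normoxia, while STMN1, which destabilises microtubules, fell by 0.77.

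Some risen members had 0 counts in normoxia, where only a lower bound can be given against a floor of 3 counts per library. PHBP11, of the prohibitin gene PHB, had 53 counts in hypoxia (0.645, 0.576 and 0.299 CPM), at least 6.70-fold higher, while PHB fell by 1.17. ST13P6 had 80 counts (1.01, 0.778 and 0.509 CPM), at least 10.1-fold higher, while the chaperone cofactor gene ST13 fell by 0.29. KC877373.1, closest to RPL32 at 91.4% identity, had 131 counts, at least 16.7-fold higher. ST13P6 and KC877373.1 have the same gene upstream on their strand, the secreted signalling protein gene WISP1, which went from 0.00833 CPM, also under the floor, to 2.24 CPM. In all, 5 tested members had 0 counts in normoxia and 0 had none in hypoxia.

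Members without a parent by name included further large changes. AC136632.1, 97.3% identical to the ribosomal gene RPL19, rose from 0.101, 0 and 0.0510 to 3.51, 4.93 and 4.22 CPM (6.29 ± 0.43). It begins 45 bases after FAM153C, which had 0 CPM in normoxia and 12.2 CPM in hypoxia. AC005077.4, named after its values were seen, rose from 0.0504, 0.125 and 0.0255 to 4.29, 4.06 and 3.35 CPM (5.79 ± 0.35). AC007686.1, closest to RPLP1, had 3 counts in normoxia and 94 in hypoxia, a ratio of 35.9 with an exact counting interval of 11.9 to 177 at 95%. AC009078.1 had 1 count in normoxia and 143 in hypoxia, a ratio of 166 (29 to 6521). Among the fallen, AC007683.1 had 78 counts in normoxia and 3 in hypoxia, a ratio of 22.9 (7.48 to 112), in an intron of NAPEPLD, a lipid-signalling enzyme gene that fell by 1.99. AC018644.1, in an intron of the antiviral gene ZC3HAV1 (-1.72), fell from 4.99, 3.95 and 4.51 to 0.673, 1.15 and 0.928 CPM (-2.29 ± 0.21). AC060766.1 (-2.24) overlaps an exon of AC060766.7 (-2.14). AC106872.5 fell from 3.25, 3.25 and 3.70 to 0.729, 0.864 and 0.629 CPM (-2.19 ± 0.20). Counting intervals and floors cover counting error only.

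Among members with a parent at an FPKM of 1 or more, RPL7AP34 fell most, at chr6:63548708-63549508. It went from 2.72, 3.10 and 2.98 to 0.393, 0.144 and 0.240 CPM (-3.48 ± 0.30, adjusted p = 1.5e-06), with RPL7A at -0.08 and the gene on the other strand, PTP4A1, at -0.09. GCSHP5, 99.8% identical to the glycine cleavage gene GCSH, fell by 1.64 ± 0.60 (4.31, 1.70 and 1.48 to 1.18, 0.115 and 1.11 CPM, adjusted p = 0.0294), beside -1.62 for GCSH. Its call was lost with DESeq2 (adjusted p = 0.113), without C1 (edgeR adjusted p = 0.155) and without C5 (edgeR adjusted p = 0.0535). With 99.8% identity, the division of reads between GCSHP5 and GCSH is uncertain. ZRSR2P1 fell by 2.03, over an exon of SRP19 (-1.06), while the splicing factor gene ZRSR2 was at -0.21 (adjusted p = 0.0815).

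Of 1314 parents tested, 1081 were called, 361 risen and 720 fallen, with a median of -0.22. That is 82.3%, near the 83.2% of all genes at 10 CPM or more, and the parents' median level was 54.7 CPM. These include parents of copies that were not tested. Parents of tested pseudogenes alone gave 78 risen and 111 fallen of 233 (median -0.10). The 360 tested pseudogenes with a parent gave 125 risen and 58 fallen (median 0.29). Of 350 pairs with both tested, 90 were called in the same direction (55 risen and 35 fallen) and 52 in opposite directions. In 43 of those 52 the pseudogene rose and the parent fell, and in 9 the reverse. In 36 pairs only the pseudogene was called, in 129 only the parent and in 43 neither. In each family below, the tested copies had a lower median level than the parents, and 47.5% of all genes under 1 CPM were called. Parents counted for a family are the tested parents of all its copies in the table, including copies that were not tested. Counts of calls in copies and parents are therefore not compared.

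Ribosomal protein copies were the largest family, with 1139 in the table and 76 tested. Of these 30 rose and 9 fell (median 0.41), while 25 of 79 tested parents rose and 27 fell (median 0.00 to 2 decimals), and only 1 parent changed 2-fold. Among the risen, RPS12P26 rose by 2.58 (0.881, 1.32 and 0.892 to 5.69, 6.77 and 6.14 CPM) in an intron of the semaphorin gene SEMA4B (2.14) and RPSAP16 by 1.87 in an intron of CEP350 (0.67). RPL17P50, which begins 622 bases after the collagen hydroxylase gene P4HA1 (2.23), rose by 2.57, while RPL17 fell by 0.38. Of the fallen, RPS3AP12 (-1.51) lies in an intron of WARS2 (-1.06).

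Glycolysis, whose enzymes turn glucose into pyruvate and whose genes are known targets of the hypoxia response, left 100 copies in the table and 11 tested. All 10 of the tested parents were called, 9 risen, with a median of 1.42 at a median level of 1637 CPM. Of 11 pseudogenes, at a median level of 0.469 CPM, 3 rose and 0 fell (median 0.21). PGK1P2 rose from 0.101, 0.150 and 0.280 to 0.757, 0.864 and 0.659 CPM (2.09 ± 0.41, adjusted p = 0.000929), beside 1.99 for PGK1. GAPDHP14, in an intron of BACH1 (1.69), rose by 2.48 and GAPDHP35, outside genes, by 2.03, beside 1.92 for GAPDH. GAPDHP62 (0.21) and GAPDHP71 (0.44) did not pass, nor did ENO1P3 (0.11, parent 0.87), TPI1P2 (0.13, parent 1.59), LDHAP3 (0.78, parent 1.24), PGAM1P8 (-0.36, parent 0.59), PGAM1P6 (-0.18) and PGAM1P11 (-0.01). All 61 GAPDH pseudogenes together held 0.0634% of the family's CPM in normoxia and 0.0395% in hypoxia.

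Iron storage rests on ferritin, a shell of heavy and light chains that holds iron in the cell, and the study's title concerns ferroptosis, a death driven by iron. FTH1 rose from 2689, 2661 and 2616 to 9622, 10584 and 10428 CPM (1.94 ± 0.04). Of 22 FTH1 pseudogenes, 7 were tested, of which 5 rose and 1 fell, with a median of 2.42. FTH1P2 rose from 0.0504, 0.0750 and 0.0510 to 1.09, 1.70 and 1.11 CPM (4.39 ± 0.42, adjusted p = 3.75e-06). Its normoxia values stood at or under the floor of 3 counts per library, so it passed the low-count filter only through hypoxia and had to differ. FTH1P10 rose from 0.428, 0.400 and 0.178 to 2.44, 1.84 and 1.89 CPM (2.60 ± 0.32), opposite an exon of AC026785.2 (2.67). FTH1P1 (2.69), FTH1P11 (2.42) and FTH1P12 (2.16) also rose, and none of these 5 lies in a gene on its own strand. The other two lie in same-strand introns. FTH1P3 fell from 1.33, 1.60 and 1.22 to 0.533, 0.519 and 0.838 CPM (-1.14 ± 0.28, adjusted p = 0.00386) within the phosphatase gene PPM1G, which fell by 0.96. FTH1P16 (0.63, adjusted p = 0.0867) lies within RSF1 (0.29). The highest of these pseudogenes stood at 0.0837% of the FPKM of FTH1, and the division of reads between them and FTH1 is uncertain.

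Cytoskeleton and keratin copies gave 14 risen and 5 fallen of 33 (median 0.18), with parents at 10 risen and 12 fallen of 24. KRT18P31 rose from 5.51, 5.00 and 4.49 to 7.74, 9.68 and 10.2 CPM (0.88 ± 0.13) although KRT18 fell by 0.40 and its host NIPBL, a cohesin loader, by 0.31. TPM3P9 rose by 0.25 (25.3, 26.9 and 23.2 to 29.6, 30.6 and 29.8 CPM), while the tropomyosin gene TPM3 fell by 0.13. The call of TPM3P9 was lost under library totals (0.10, edgeR adjusted p = 0.179). ACTG1P14 rose by 1.90 in an intron of the histone demethylase gene KDM4C (1.83). KRT18P4 did not pass (-0.14, adjusted p = 0.682).

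Chromatin and nucleolar copies gave 4 risen and 5 fallen of 17 (median -0.07), and of 18 parents 14 fell and 3 rose (median -0.50). HMGB1P5 fell from 77.8, 83.4 and 82.0 to 46.9, 43.0 and 45.5 CPM (-0.85 ± 0.05, adjusted p = 8.53e-08). HMGB1P6 fell from 20.8, 19.9 and 19.7 to 10.2, 11.4 and 9.97 CPM (-0.93 ± 0.08). HMGB1 fell with them from 87.2, 90.8 and 90.7 to 43.3, 45.6 and 46.2 CPM (-0.99 ± 0.05), and the shares in FPKM stayed close, 119% and 120% of HMGB1 for HMGB1P5 and 38.5% and 38% for HMGB1P6. With HMGB1P5 97.9% identical to HMGB1, the division of reads between them is uncertain. HMGN1P8, of a nucleosome-binding protein, rose by 2.53 in an intron of PDCD10 (1.06), while HMGN1 fell by 1.00.

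Chaperone copies, whose parents help proteins fold, gave 1 risen and 4 fallen of 11, with 15 of 17 parents fallen. HSPD1P11 fell from 5.39, 7.17 and 6.37 to 2.58, 2.85 and 3.59 CPM (-1.07 ± 0.16) in an intron of RHOBTB3 (-1.18), with HSPD1 at -1.44. HSPA8P3 fell by 1.64 within PDSS1 (-1.79), with HSPA8 at -1.55. PPIAP46 rose by 0.56 (adjusted p = 0.0245), beside 0.34 for PPIA, and lost the call under library totals (0.41, edgeR adjusted p = 0.0864) and without C2, C4 or C6. Copies of hnRNP and splicing genes, at a median level of 0.570 CPM, gave 0 risen and 1 fallen of 10 (median -0.21). Of the 36 tested parents of all such copies in the table, at a median level of 128 CPM, 29 fell and 5 rose (median -0.44). HNRNPA1P33 fell from 2.34, 2.27 and 2.06 to 0.561, 0.807 and 1.26 CPM (-1.35 ± 0.28) in an intron of LINC00842 (-0.90), beside -0.26 for HNRNPA1. HNRNPA1P16 (0.20) and HNRNPH1P1 (-0.10) did not pass.

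Elongation and initiation factor copies gave 5 risen and 0 fallen of 13 tested, and 8 of these 13 are copies of EEF1A1. Of the 26 tested parents of all such copies in the table, 19 fell. EEF1A1P3 rose from 1.51, 1.85 and 1.5 to 3, 3.52 and 3.86 CPM (1.09 ± 0.18), while EEF1A1, which brings aminoacyl tRNA to the ribosome, was at 0.05 (adjusted p = 0.473). EEF1A1P5, 99.7% identical to EEF1A1, was at 0.18 (adjusted p = 0.253). Nuclear respiratory chain copies gave 3 risen and 0 fallen of 6. Of the 60 tested parents of all such copies in the table, 37 fell and 12 rose. NDUFA9P1 rose by 0.59 (adjusted p = 0.0101), beside 0.28 for the complex I gene NDUFA9. The value of NDUFA9 turned to -0.21 with limma on FPKM and lost its call under library totals (0.12, edgeR adjusted p = 0.121). UQCRFS1P1 was at -0.18 (adjusted p = 0.728). In the ubiquitin and proteasome family, 1 of 95 copies was tested. That was PSMC1P1, at 18.2, 22.1 and 21.2 CPM in normoxia and 21.7, 20.5 and 18.1 CPM in hypoxia (-0.03 ± 0.09), beside 0.00 to 2 decimals for PSMC1.

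**Figure D4:**
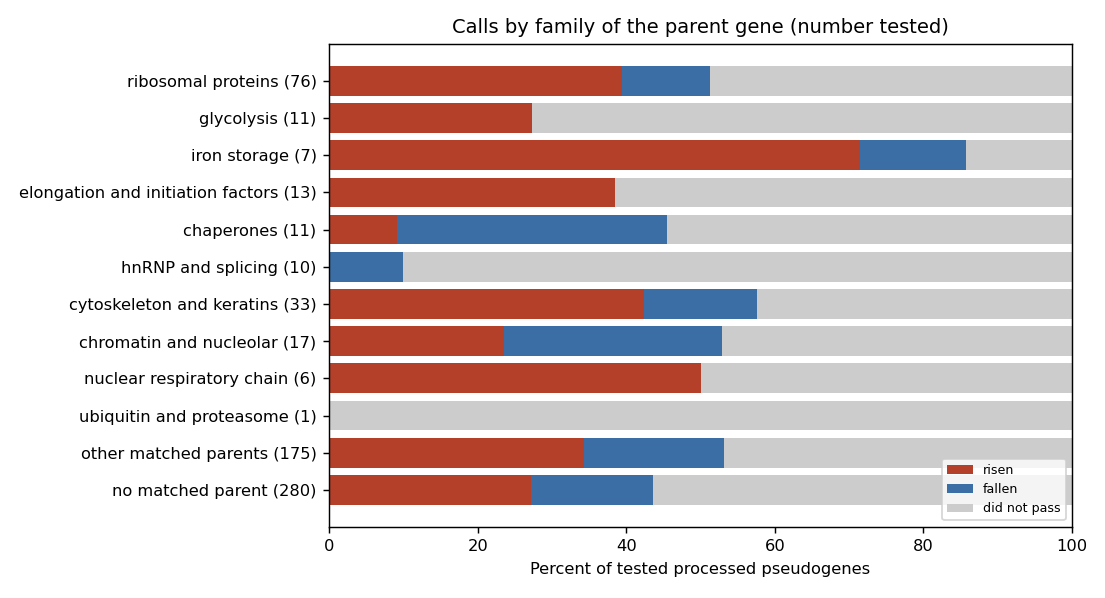
Percent of the tested processed pseudogenes of each parent family that rose (red), fell (blue) or did not pass the test (grey), with the number tested in parentheses. Iron storage has 5 of 7 risen, ribosomal proteins 30 of 76, chaperones 4 of 11 fallen, and hnRNP and splicing 9 of 10 that did not pass.

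Other members resembled their parents in single cases, which were named after their values were seen. NAMPTP1, outside genes, rose from 10.4, 7.72 and 6.96 to 39.6, 41.9 and 43.8 CPM (2.32 ± 0.12, adjusted p = 3.39e-08), beside 2.08 for NAMPT, the enzyme gene of NAD salvage. Its share of NAMPT in FPKM was 16.7% and 18.3%. AK4P1, 99.7% identical to the mitochondrial adenylate kinase gene AK4, rose by 1.27, beside 1.37 for AK4, while its host NF1 fell by 0.24. At that identity the division of reads between AK4P1 and AK4 is uncertain. DUSP5P1, only 83.4% identical to the phosphatase gene DUSP5, rose by 2.53 beside 2.31, in no gene, with RNF187 (1.30) upstream at 154475 bases.

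Other copies stayed at or near 0 counts. BNIP3, which directs the removal of mitochondria, rose by 2.92 from 97.9 to 741.6 CPM. Of its 39 processed pseudogenes 0 were tested and 32 had 0 counts, and their sum was 0.194 CPM (normoxia) and 0.360 CPM (hypoxia). HMGA1P1, SUMO1P3 and RPSAP58 had 0 counts in the 6 libraries. ENO1P1 had 1 count, GAPDHP1 11, FTH1P8 23 and LDHAP4 34, all below the filter.

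Because reads can pass between a pseudogene and its parent, the reads of matched pseudogenes were added to each parent and the test repeated, with 73.3% of 17044 genes called. Of the 1314 parents tested in both fits, 1081 were called in each, 1073 of them in both. In the second fit 8 were lost, 8 gained and 0 reversed, and 26 log2 changes moved by more than 0.1, with a median shift of 0.004. Over all 1322 parents that could then be tested, 1086 were called. SDAD1 moved most, from -1.36 to -0.34, but the reads added to it include those of SDAD1P1, which may hold reads of BNIP3L. KRT8 (0.17, adjusted p = 0.0901) and RPL23A (0.12, adjusted p = 0.0938) became called at 0.27 (adjusted p = 0.0051) and 0.15 (adjusted p = 0.00894). The share of family CPM in pseudogenes was 52.2% and 53.2% for RPL23A, 54.2% and 56.8% for HMGB1, 36.2% and 40.4% for KRT8, 12.4% and 14.3% for NAMPT, and 0.122% and 0.0813% for FTH1, in normoxia and hypoxia in that order.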

How the data were processed

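Total RNA of 3 normoxia and 3 hypoxia libraries labelled Huh7 was sequenced after rRNA depletion, as strand-specific paired-end libraries (per the labels' protocols). The submitters' processing notes list cutadapt, HISAT2, RSEM and GRCh38 (hg38). Tool versions, the annotation and the strand setting were not given in those notes. The file deposited by the authors held 251062 transcript rows with a length and RSEM expected counts, estimated counts that RSEM divides among transcripts. Another 6 columns of per-library values, which could not be tied to single samples, were not used. Where FPKM appears, it was recomputed from the expected counts, the deposited lengths (not effective lengths) and the library totals. Column names gave each library's condition (C1 to C6) but no replicate number of the labels.

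Here, 202907 rows were summed to 58478 genes of GENCODE release 29 and rounded, and the other 48155 rows were left out. Genes passing filterByExpr were scaled by TMM and tested with edgeR's quasi-likelihood test (edgeR 4.0.16, R 4.3.3), with Benjamini-Hochberg adjustment over 17396 genes and a threshold of 0.05. The SE is the log2 change divided by the root of F. The same test was also run on counts simulated from the means and dispersions of these data. Pseudogenes were aligned locally to the parent transcript with the longest coding sequence (Biopython 1.88, match 2, mismatch -3, gap opening -5 and extension -2), and identity classes used alignments over 50% or more of the pseudogene. The closest protein-coding transcript of a member without a parent came from blastn 2.17.0 (E-value 1e-10). The floor of 3 counts stood at 0.0757 CPM (normoxia) and 0.0868 CPM (hypoxia). No 2 libraries of a group were as alike as counting noise alone would make them (chi-square over degrees of freedom 4.53 to 11.0).

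Named genes were the 10 risen and 10 fallen members with a parent, and the 4 and 4 without one, by size of change among those called without overlap and with a group mean FPKM from 1 upwards. To these came the 10 most abundant members, the 5 opposite pairs farthest apart, the 2 most abundant tested members of each family list, and a fixed list. HNRNPA1P48, of the fixed list, was not in the table. Of that list, 1 member is not reported here. Others were chosen after their values were seen. Members and lists were chosen with earlier results of these data known. Alternatives were DESeq2 1.42.0, limma 3.58.1 on log2(FPKM + a pseudocount of 0.5, 0.1 or 1), other scalings and filters, and leaving out each library.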

Additional observations from a re-analysis of the deposited data

How the results depend on the processing

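No paired analysis was possible because the columns carry no replicate numbers of the labels. Of 640 tested pseudogenes, DESeq2 called 40.2%, scaling by library totals 46.2% and edgeR 47.7%. Leaving out each library in turn gave 265 to 280 called of these 640 (176 to 191 risen, 86 to 93 fallen), all below the 305 of the 6 libraries. Those fits tested 697 to 711 members, of which 288 to 302 were called (190 to 206 risen, 92 to 104 fallen), 129 to 139 in same-strand introns, 75 to 90 outside genes and 28 to 36 at 95% identity or more. It gave 1013 to 1068 called parents (335 to 356 risen, 677 to 712 fallen), 81 to 93 pairs in the same and 48 to 52 in opposite directions, and a ratio of summed CPM of 1.17 to 1.23. That ratio was 1.08 as a share of counts and 1.29 without the 10 most abundant members. Members overlapping no other gene on their strand, fewer by construction, gave 104 called, 69 risen and 35 fallen. With no low-count filter, which tests more genes, 136 were called outside genes, beside 83.

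Signs turned for 12 of the 93 named members and their parents, all with small log2 changes in edgeR. Under library totals the log2 change of ATP6V0C was -0.023, EEF1A1 -0.10, ENO1P3 -0.041, GTF2IP4 -0.12, PSMC1 -0.15, RPL13A -0.021, RPL23A -0.034 and RPS2 -0.10. With limma on log2(FPKM + 0.5), ATP6V0C was at -0.023, EEF1A1 -0.095, GTF2IP4 -0.098, NDUFA9 -0.21, PSMC1 -0.13, RPL13A -0.022 and RPS2 -0.10. With pseudocounts of 0.1 and 1, GTF2IP4 was at -0.10 and -0.095, and the other values were within 0.01 of these. PSMC1 was at -0.026 with no low-count filter and -0.00064 with pseudogene reads added. Without 1 library, the values ran from -0.138 to 0.584 for ENO1P3, -0.844 to 0.140 for UQCRFS1P1, -0.393 to 0.120 for KRT18P4, -0.119 to 0.044 for PSMC1P1, -0.058 to 0.039 for PSMC1, -0.027 to 0.081 for GTF2IP4 and -0.032 to 0.0998 for EEF1A1. The cause was not tested. Under 1 CPM, where 368 of the 640 lay, 38.9% were called.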

Other observations

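Nuclear copies named after mitochondrial genes, which have no parent by the naming rule, numbered 225 in the table, of which 11 were tested. Of these 11, 3 fell and 0 rose (edgeR, adjusted p under 0.05), beside 36.3% fallen and 36.5% risen of all genes tested. MTND6P3 fell from 3.05, 2.30 and 1.63 CPM in normoxia to 0.589, 0.576 and 0.539 CPM in hypoxia (log2 change -2.03 ± 0.28, adjusted p = 6.59e-05). It lies in an intron of KIAA0825, which fell by 3.51. MTND6P4 fell by 1.65 in an intron of PCBD2 (-0.68), and MTCO1P53, outside genes, fell by 0.99. The mitochondrial genes MT-ND6 and MT-CO1, which encode subunits of complexes I and IV, fell by 2.92 and 1.01. MTND6P4 is 95% identical to MT-ND6 over its aligned part and MTND6P3 89.0%, so the division of reads is uncertain. Of the SLC2A3 copies, SLC2A3P1 rose by 0.46 (7.96, 8.10 and 7.21 to 11.4, 11.0 and 9.64 CPM), over an exon of PANK3 (-0.12), while the glucose transporter gene SLC2A3 rose by 2.39.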
